A study of Mus musculus with 24 samples.

Results

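Wild-type (WT) Kupffer cells of the liver were compared directly with WT splenic macrophages by bulk RNA sequencing in 6 of the 24 mouse libraries of the series. The 6 libraries were chosen by their labels: 3 came from kupffer cells of WT liver and 3 from splenic macrophages of WT spleen. The same pair of tissues in animals of the genotype Z165KO (KO in this text, 3 libraries each) was read as a second, separate set. WT alveolar macrophages of the lung and microglia of the brain (3 libraries each) placed the pair among the 4 macrophage types. All groups were sorted from digested tissue, with RNA from 100000 macrophages per sample. Strain, age, the sorting gate, the Z165KO allele and whether replicates were separate animals are not given in the sources used here, so the replicate spread behind every p-value may be technical only.

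Both cells filter blood. Kupffer cells sit in the liver sinusoids beside fenestrated endothelium and take up bacteria, immune complexes and damaged red cells, while red pulp macrophages line the open circulation of the spleen and engulf senescent red cells. In either place the heme of engulfed red cells is opened by heme oxygenase, and the iron is stored in ferritin or exported through ferroportin. The factor Spi-C, an ETS relative of PU.1, is known for its part in the splenic programme.

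Clec4f, a C-type lectin receptor that in mice marks Kupffer cells, stood at 8844, 10253 and 8962 CPM in the 3 Kupffer libraries and at 0, 0.183 and 0 CPM in the 3 splenic libraries. Spic was read in the opposite order, at 147, 133 and 131 CPM in Kupffer cells and at 1639, 1446 and 1343 CPM in splenic macrophages (log2 difference, Kupffer minus splenic, -3.59 ± 0.12, SE, adjusted p = 2.21e-05). Both markers followed the labels, with no overlap between the tissues, and Spic was also read in every Kupffer library. Without splenic replicate 2, the splenic library that held its reads, Clec4f was at 0 in the spleen, and its fitted log2 difference moved from 17.03 to 22.01. Csf1r, the receptor for the growth factor of all macrophages, was read at 6234, 7502 and 6168 CPM and 8086, 8756 and 9575 CPM (log2 difference -0.57 ± 0.13, adjusted p = 0.0193). Its call was lost without Kupffer replicate 1 or 3 or splenic replicate 2 or 3 (adjusted p = 0.075, 0.0689, 0.0603 and 0.0545) and in the fit of 12 WT libraries (adjusted p = 0.0612). The pan-macrophage receptor Adgre1 (F4/80) was at 1874, 2126 and 1745 CPM and 1744, 1921 and 2112 CPM, in the same order. Total counts were 54754295 to 62984970 per library, and CPM is the count per 1000000 counts of these totals.

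Among 18702 genes tested, 4034 differed between the tissues at an adjusted p under 0.05 (21.6%), and are here termed called. Of these, 2276 were higher in Kupffer cells (12.2% of those tested) and 1758 in splenic macrophages (9.4%). With library totals in place of TMM scaling (a correction for the makeup of the libraries) the same test called 2874 and 1310 genes. The median log2 difference of all genes moved from 0.05 to 0.22, and smaller differences are to be read against that shift. Counts of list members on each side, in all that follows, are to be read against the 12.2% and 9.4% of all tested genes. Against a fold of 2 instead of no difference, 1726 genes were called (1177 and 549); of the 156 called genes named here 36 did not pass that stricter test. A fitted difference of at least 2-fold was held by 1836 of the Kupffer genes and 1066 of the splenic ones (9.82% and 5.7% of the genes tested). In 1 fit of the 12 WT libraries the Kupffer-splenic pair had the fewest called genes of the 6 pairs of macrophage types, 3558 of 21679 (16.4%). The shares were 26.9% for alveolar and splenic macrophages, 28% for alveolar macrophages and Kupffer cells, 32.4% for Kupffer cells and microglia, 34.9% for microglia and splenic macrophages and 39.8% for alveolar macrophages and microglia.

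Markers of other cell types were read in each tissue, and their levels are given first because they differed between the groups. All 18 tested markers of liver sinusoidal endothelium were higher in Kupffer libraries; their summed level was 11906, 9559 and 11813 CPM there against 589, 638 and 703 CPM in splenic libraries. Kdr, the endothelial VEGF receptor, read 1395, 1165 and 1265 CPM against 0.197, 0.128 and 0.0178 CPM. Of 19 tested erythroid markers 18 were higher in splenic libraries, with sums of 7829, 5984 and 23084 CPM against 139.9, 114 and 265 CPM, with the highest sum in splenic replicate 3. Sums of 20 hepatocyte markers were 274, 351 and 612 CPM in Kupffer and 17.5, 9.899 and 13.3 CPM in splenic libraries, with 16 called. The 9 markers of macrophages of the peritoneal cavity summed to 207, 1141 and 496 CPM in Kupffer libraries, highest in replicate 2, and to 21.02, 10.04 and 14.8 CPM in splenic libraries, and all 9 were called. B cell markers summed to 2055, 1654 and 1339 CPM in Kupffer and 3013, 2171 and 2322 CPM in splenic libraries, and neutrophil markers to 151, 162 and 129 and 242, 183 and 258 CPM. Of 13 tested NK cell markers 7 were higher in Kupffer libraries and 0 in splenic libraries. Their sums were 372, 364 and 302 CPM against 134, 85 and 65.3 CPM. For stellate cell and fibroblast markers the counts were 7 and 0 of 15. They were 7 and 3 of 18 for dendritic cells, 6 and 1 of 16 for monocytes, and 5 and 1 of 17 for T cells. In bulk samples more cells of a type and more RNA per cell cannot be told apart.

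**Figure D1:**
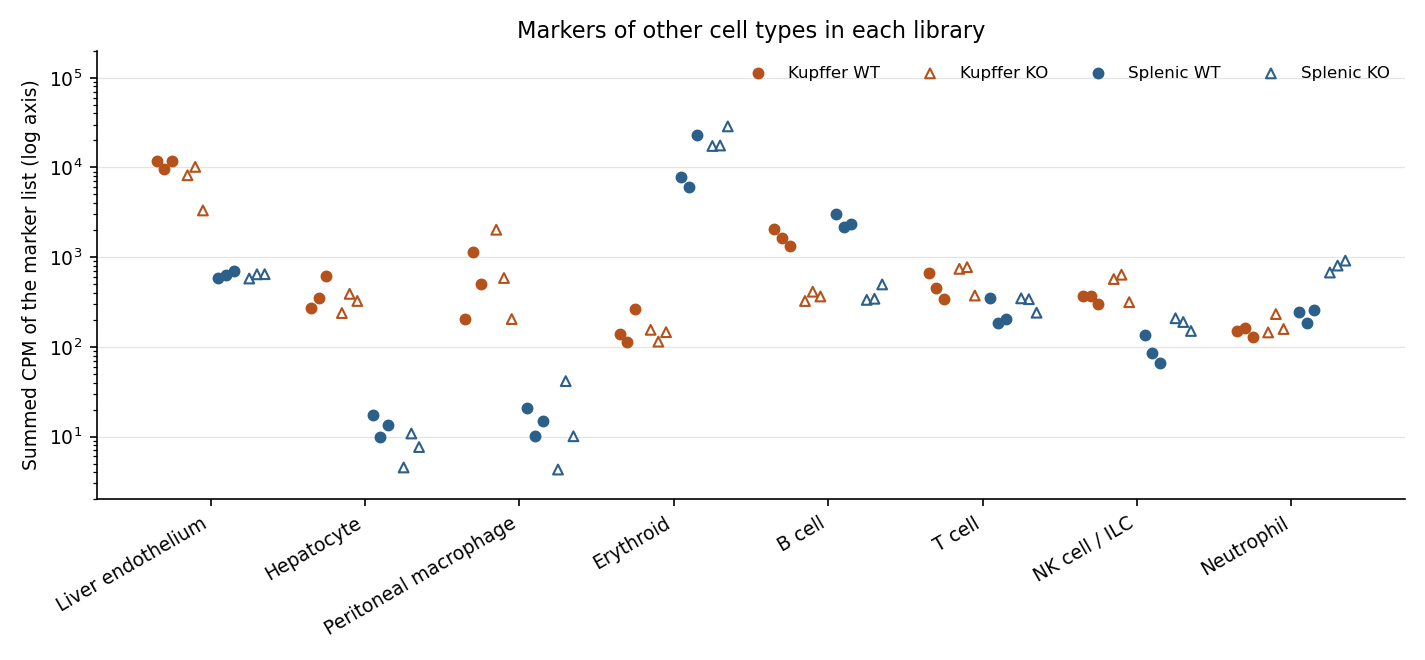
Summed CPM (log axis) of 8 lists of markers of other cell types in each Kupffer and splenic library, WT as filled circles and KO as open triangles, with no error bars because each point is 1 library. Liver endothelium markers sum to between 9559 and 11906 CPM in the WT Kupffer libraries and are lowest among Kupffer libraries in KO replicate 3, at 3317 CPM; erythroid markers are highest in the splenic libraries.

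The Kupffer library of KO replicate 3 was the lowest in endothelial markers. Its endothelial sum was 3317 CPM against 8186 and 10152 CPM in KO replicates 1 and 2. Each of the 18 endothelial markers was lower in it, at 0.151 to 0.593 of the mean of the other KO libraries. For the 12 Kupffer identity genes called in WT the median of the same ratio was 1.15, and for the 9 peritoneal markers it was 0.16. The ratio in this library is given beside single genes in what follows, to show whether each was low there as well. That library was also the lowest KO Kupffer library in summed T cell markers, with 741, 773 and 373 CPM in KO replicates 1, 2 and 3. The same held for NK cell markers (570, 637 and 315 CPM) and dendritic cell markers (1269, 1550 and 997 CPM), but not for hepatocyte markers (238, 390 and 325 CPM). A low ratio therefore does not tell endothelial RNA from that of such cells. The part of other cells in the Kupffer levels was not tested.

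Of 20 tested genes of the Kupffer identity list, 12 were higher in Kupffer cells and 2 in splenic macrophages, and the median log2 difference was 1.68 against 0.05 for all genes. Without each library in turn the counts stayed 12 and 2. Vsig4, the complement receptor CRIg that captures opsonised bacteria, was at 1366, 1649 and 1286 CPM in Kupffer and at 4.47, 3.12 and 2.15 CPM in splenic libraries (log2 difference 8.63 ± 0.33, adjusted p = 2.7e-05). Cd207 (langerin) lies next to Clec4f on the minus strand of chromosome 6 (mm10, 83671215 to 83677857, with Clec4f at 83644542 to 83656187). It was at 121, 152 and 100.2 CPM against 1.09, 0.804 and 0.995 CPM (log2 difference 6.84 ± 0.24, adjusted p = 2.21e-05). For both neighbours the splenic libraries lay near the bottom of the scale. Clec4f, Vsig4 and Cd207 stood at 1.13, 1.27 and 1.17 of the other KO libraries in Kupffer KO replicate 3.

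Folr2, folate receptor beta, was at 70.6, 91.4 and 74.7 CPM against 0.251, 0.256 and 0.444 CPM (log2 difference 7.78 ± 0.29, adjusted p = 2.7e-05). The fatty acid binding protein gene Fabp7 was at 80.9, 113 and 84.8 CPM against 0.323, 0 and 0.195 CPM (log2 difference 8.89 ± 0.64, adjusted p = 0.000215); without splenic replicate 1 the difference of Fabp7 was 9.64. The opsonin gene Cd5l was shared by both cells at unequal levels, 4206, 5186 and 4962 CPM in Kupffer and 834, 910.1 and 923 CPM in splenic libraries (log2 difference 2.26 ± 0.13, adjusted p = 0.000102). Timd4, a receptor for phosphatidylserine on dying cells, was at 607, 695 and 578 CPM against 228, 204 and 248 CPM (log2 difference 1.30 ± 0.13, adjusted p = 0.000661), also present in both. In fits with all 12 WT or all 24 libraries the calls of Cd5l (adjusted p = 0.21 and 0.101) and Timd4 (adjusted p = 0.0818 and 0.0546) were lost. The 6 members that were not called were C6, Fcna, Pcolce2, Kcna2, Hpgd and Cd38; C6, a component of the complement attack complex, was at 770.4, 855 and 656 CPM and 754, 696 and 672 CPM. Fcna (ficolin A), a lectin of the complement system, was at 1845, 2160.1 and 1762 CPM and 1922, 1958 and 1997 CPM. Paqr9 and Slc16a9 were the 2 list genes that were higher in the spleen, and neither was called in the fits of 12 or 24 libraries (adjusted p = 0.123 and 0.092 for Paqr9, 0.262 and 0.32 for Slc16a9). Ratios in Kupffer KO replicate 3 were 0.929 for Folr2, 1.03 for Fabp7, 1.59 for Cd5l and 1.07 for Timd4.

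The upstream sequence of 2 Kupffer-higher and 2 spleen-higher genes is shown because Spi-C and its relative PU.1 bind purine-rich ETS sites; capitals mark GAGGAA or its reverse complement. Each run is the 250 bases before the RefSeq start of the gene in GRCm38.p6, 5′ to 3′ on the gene's strand, and none of its bases lies in a GENCODE exon. They lie at chrX:96293439-96293688 (minus strand, Vsig4), chr3:87357631-87357880 (plus strand, Cd5l), chr10:88683024-88683273 (minus strand, Spic) and chr17:48264045-48264294 (plus strand, Treml4).
Vsig4: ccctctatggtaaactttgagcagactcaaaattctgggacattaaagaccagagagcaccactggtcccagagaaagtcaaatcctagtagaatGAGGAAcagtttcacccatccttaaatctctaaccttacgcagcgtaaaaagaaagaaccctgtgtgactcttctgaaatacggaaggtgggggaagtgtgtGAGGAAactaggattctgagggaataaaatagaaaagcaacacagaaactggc
Cd5l: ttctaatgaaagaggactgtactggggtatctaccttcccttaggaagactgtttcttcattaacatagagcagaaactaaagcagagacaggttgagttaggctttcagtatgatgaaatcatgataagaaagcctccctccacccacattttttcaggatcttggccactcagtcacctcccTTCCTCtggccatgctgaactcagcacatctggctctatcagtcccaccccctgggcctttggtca
Spic: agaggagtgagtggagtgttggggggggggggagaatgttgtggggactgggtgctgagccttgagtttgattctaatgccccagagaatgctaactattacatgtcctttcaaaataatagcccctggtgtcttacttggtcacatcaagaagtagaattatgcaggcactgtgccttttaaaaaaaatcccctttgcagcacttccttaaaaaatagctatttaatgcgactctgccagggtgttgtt
Treml4: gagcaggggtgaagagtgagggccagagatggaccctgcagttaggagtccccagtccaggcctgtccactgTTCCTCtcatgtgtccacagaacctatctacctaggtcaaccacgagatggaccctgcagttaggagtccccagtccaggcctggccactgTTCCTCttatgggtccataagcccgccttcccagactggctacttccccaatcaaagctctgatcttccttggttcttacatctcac
Vsig4 and Treml4 hold 2 matches each, Cd5l holds 1, and this window of Spic holds none. The motif, searched on both strands, was found in 23.1% of the 27025 promoter windows of the table. It was in 27% of the 1283 windows of genes at least 2-fold higher in Kupffer cells and in 23.4% of the 770 of genes at least 2-fold higher in splenic macrophages. A match is a string of letters and not a bound site.

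Of 16 tested genes of the red pulp identity list, 12 were higher in splenic macrophages and 2 in Kupffer cells, and the 12 stayed 12 without each library in turn. Vcam1, an adhesion molecule for leukocytes, was at 559.8, 656 and 899 CPM in Kupffer and 9228, 10761 and 10927 CPM in splenic libraries (log2 difference -4.03 ± 0.22, adjusted p = 8.12e-05). Itgad, the integrin alpha D chain, was at 1.195, 0.937 and 0.328 CPM against 1535, 1721 and 2009 CPM (log2 difference -11.23 ± 0.51, adjusted p = 4.17e-05), a mean 2141-fold higher in the spleen. Pparg, a lipid-sensing nuclear receptor, was at 19.3, 16.4 and 16.2 CPM against 197, 278 and 257 CPM (log2 difference -3.99 ± 0.19, adjusted p = 4.64e-05). None of these 3 genes overlapped between the tissues.

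Treml4, a receptor of the TREM family, was at 339, 359.99 and 249.8 CPM against 739, 853 and 772 CPM (log2 difference -1.48 ± 0.16, adjusted p = 0.00105). Axl, a receptor kinase that binds Gas6 on dying cells, was at 1833, 2086 and 1767 CPM against 4249, 5275 and 5444 CPM (log2 difference -1.56 ± 0.15, adjusted p = 0.000573). Kupffer cells held both genes too. In the fit of 12 WT libraries Treml4 was no longer called (adjusted p = 0.0506). Adgre1 and the haptoglobin-hemoglobin receptor Cd163 did not pass the test, with log2 differences of -0.17 and -0.00342. Siglec1, a sialic acid receptor best known from splenic marginal metallophilic macrophages, was on the Kupffer side, at 573, 733 and 661 CPM against 109, 105 and 256 CPM (log2 difference 1.90 ± 0.37, adjusted p = 0.0116). Ednrb was the other member on that side, and its call was lost without Kupffer replicate 2 or 3 or splenic replicate 2 (adjusted p = 0.0619, 0.0748 and 0.081). Siglec1 stood at 1.41 and Ednrb at 0.124 of the other KO libraries in Kupffer KO replicate 3.

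By the rule for the widest fitted differences (at least 20 CPM in the higher group and libraries that do not overlap), 2 splenic genes outside the lists stood at 0 counts in every WT Kupffer library. Hs3st2, an enzyme that sulfates heparan chains, was at 104, 80.8 and 148 CPM in splenic macrophages, at least 6711-fold above the Kupffer floor of 3 counts over the group. S1pr3, a receptor for sphingosine-1-phosphate, was at 74.3, 166 and 81.4 CPM, at least 6498-fold above it. The butyrophilin-like gene Btnl6 (42.1, 39.7 and 38.1 CPM) and the collagen gene Col19a1 (28.7, 25.04 and 37.1 CPM) had at most 3 counts over the Kupffer group. Another 9 of the 15 genes named by that rule on the splenic side (Trim10, Epb42, Kel, Car1, Cldn13, Slc38a5, Rhag, Tspo2 and Slc4a1) are known from erythroid cells and were highest in splenic replicate 3, and Ngp is a neutrophil granule gene. On the Kupffer side, 14 of the 15 (all but Clec4f: Clec4g, Pxdn, Wnt2, Gja4, Enpep, Fam124a, Aass, Amotl1, Gpihbp1, Galnt18, Sox7, Mmrn2, Emcn and Npdc1) were lower in Kupffer KO replicate 3 than in KO replicates 1 and 2. They stood there at 0.151 (Wnt2) to 0.499 (Enpep) of the mean of KO replicates 1 and 2. The endothelial markers were lower there too, but Wnt2 and Clec4g are on that list, so their likeness to it was fixed. Fitted log2 differences of genes with a few counts or none in 1 tissue move with single libraries: that of Btnl6 was -12.49, and -14.25 without Kupffer replicate 1. Clec4g, a lectin of liver sinusoidal endothelium, was at 993, 796 and 977 CPM in WT Kupffer libraries and at 0 in every splenic library, at least 51240.0-fold above the splenic floor. In the KO Kupffer libraries it was at 674, 850.3 and 188 CPM.

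Ranked by the size of the difference in CPM, the 8 genes highest on the Kupffer side were Clec4f, Apoe, Lyz2, Cd5l, Ehd3, Selenop, Stab2 and Vsig4. The 8 on the splenic side were Vcam1, Cd83, Ctsb, Fth1, Nr4a1, Trf, Hmox1 and Hba-a1. Selenop, a plasma carrier of selenium, was at 2776, 2569 and 2786 CPM against 1017, 1068 and 1168 CPM (log2 difference 1.16 ± 0.11, adjusted p = 0.000593). In Kupffer KO replicate 3 Ehd3 stood at 0.283 of the other KO libraries. Ehd3 is itself on the endothelial marker list, so it lies within that list's range of 0.151 to 0.593 by construction. Selenop stood at 0.659 in the same library, Lyz2 at 0.817 and Apoe at 1.07. Ctsb, the lysosomal protease cathepsin B, was at 10642, 11196 and 9179 CPM against 14603, 17337 and 12756 CPM (log2 difference -0.69 ± 0.14, adjusted p = 0.0139). The call was lost without Kupffer replicate 1 or 3 (adjusted p = 0.0521 and 0.053). Hba-a1, an alpha globin, was at 12.4, 0.937 and 54.6 CPM against 2227, 1743 and 6733 CPM, highest in splenic replicate 3 as the erythroid markers were. It has a near-identical copy, so its reads are uncertain, and the call was lost without Kupffer replicate 1 (adjusted p = 0.0637). The 10 most abundant genes whose 95% interval lay within 0.5 of 0 on the log2 scale were Tmsb4x, H2-D1, Itm2b, C1qb, C1qc, Ctsc, B2m, Gpx1, C1qa and H2-K1; 178 of the 601 genes above 200 CPM in both tissues met that rule.

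**Figure D2:**
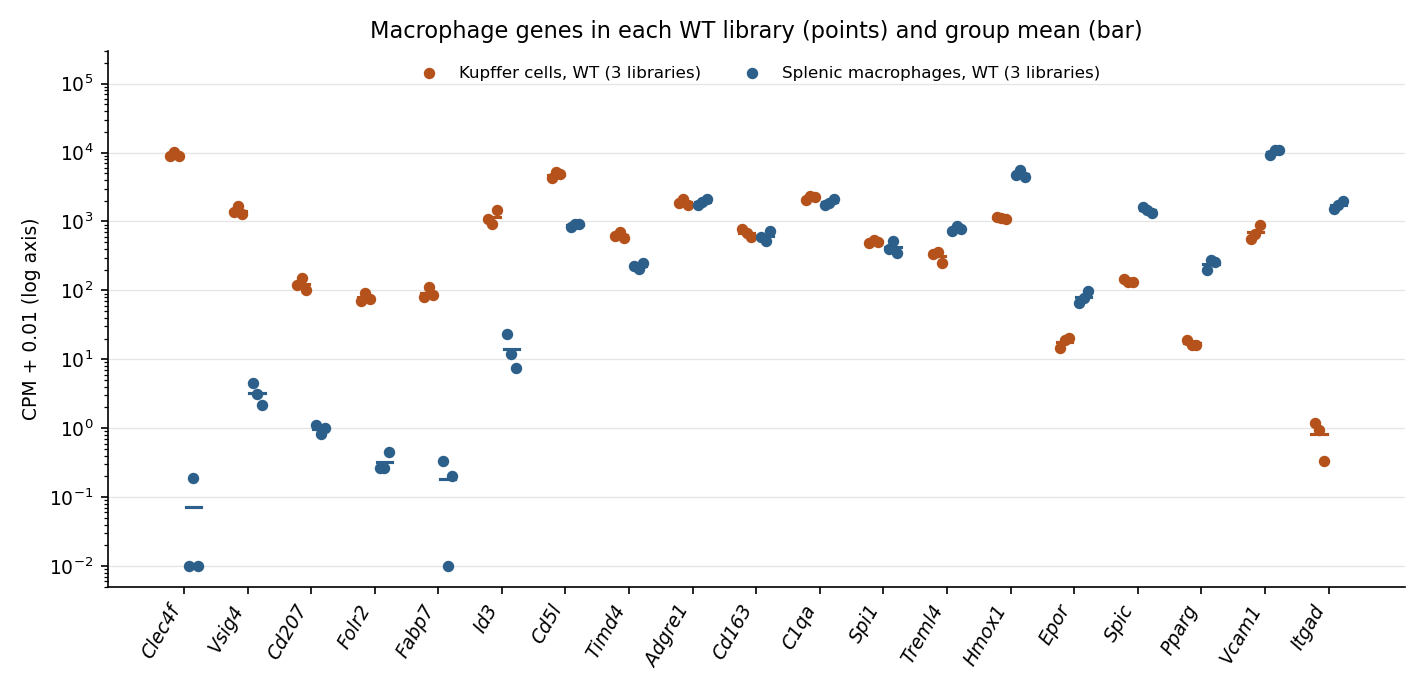
CPM plus 0.01 on a log axis for 19 macrophage genes in each WT library (points) with the mean of each group of 3 (bars), Kupffer in orange and splenic in blue. Clec4f to Timd4 lie higher in the Kupffer libraries, Adgre1, Cd163, C1qa and Spi1 lie together, and Treml4 to Itgad lie higher in the splenic libraries.

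Of 48 tested transcription factors of myeloid cells, 15 were higher in splenic macrophages (background 9.4%) and 7 in Kupffer cells (background 12.2%). The inhibitors of DNA binding, which block E proteins and are targets of BMP and TGF-beta signals, were split. Id3 was at 1078, 933 and 1444 CPM in Kupffer cells and at 23.5, 11.8 and 7.54 CPM in splenic macrophages (log2 difference 6.18 ± 0.48, adjusted p = 0.000268). It stood at 1.1 of the other KO libraries in Kupffer KO replicate 3. Id2 went the other way, 525, 475 and 608 CPM against 2368, 2000.1 and 2028 CPM (log2 difference -2.15 ± 0.13, adjusted p = 0.000122). Neither gene overlapped between the tissues.

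Bhlhe40, a transcriptional repressor, was at 148, 114 and 107 CPM in Kupffer cells and 805, 699.8 and 431 CPM in splenic macrophages (log2 difference -2.55 ± 0.25, adjusted p = 0.000646). Its relative Bhlhe41 was at 2.37, 1.19 and 0.688 CPM and 9.33, 15.1 and 6.13 CPM (log2 difference -3.02 ± 0.56, adjusted p = 0.00953). Irf8, which guides monocyte and dendritic cell fates, was at 479.7, 484 and 584 CPM and 726, 919.8 and 925 CPM (log2 difference -0.90 ± 0.16, adjusted p = 0.00754). Of the 15 splenic factors 4 are also on the list of immediate early genes described further on. Irf7, the amplifier of the interferon response, was higher in Kupffer cells, at 891, 926 and 1079 CPM against 293, 231 and 386 CPM (log2 difference 1.51 ± 0.20, adjusted p = 0.00253). Gata6, the factor of peritoneal macrophages, was at 1.697, 6.29 and 3.196 CPM against 0 CPM in each library, highest in Kupffer replicate 2. Gata6 is itself on the list of peritoneal markers, so sharing their highest library adds nothing to that list. Zeb1, at 58.6, 40.9 and 51.9 CPM against 5.599, 8.31 and 2.204 CPM (log2 difference 3.07 ± 0.46, adjusted p = 0.00407), was also on the Kupffer side. In Kupffer KO replicate 3 it stood at 0.452 of the other KO libraries, Gata6 at 0.306 and Irf7 at 1.06.

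Of the 48 factors 26 did not pass the test. Spi1, which encodes PU.1, was at 487, 543 and 511 CPM and 404, 514 and 344 CPM (log2 difference 0.12, 95% interval -0.27 to 0.52, adjusted p = 0.681). Maf and Zeb2, the factors in the title of the series, did not pass the test either. Maf was at 81.4, 80.99 and 99.4 CPM and 49.05, 51.9 and 66.2 CPM (adjusted p = 0.0937). Zeb2 was at 277, 321 and 235 CPM and 329.7, 296 and 305 CPM (adjusted p = 0.139). Nr1h3, the liver X receptor alpha known for Kupffer and splenic macrophage identity, was at 471, 532 and 421 CPM and 569, 543 and 451 CPM (log2 difference -0.30, 95% interval -0.61 to 0.02, adjusted p = 0.174). A p above the threshold does not show that the levels are equal.

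The TGF-beta and BMP list had 12 of 26 tested members higher in Kupffer cells and 2 higher in splenic macrophages; the 12 became 7 without Kupffer replicate 1 or 2 and 6 without replicate 3. Smad6, an inhibitor made in answer to BMP, was at 109.8, 103 and 103 CPM against 4.24, 3.58 and 4.76 CPM (log2 difference 4.48 ± 0.16, adjusted p = 2.21e-05), and its KO replicate 3 ratio was 0.699. The co-receptor Eng was at 697, 592 and 796 CPM against 7.81, 8.29 and 9.85 CPM (log2 difference 6.16 ± 0.20, adjusted p = 2.21e-05); endoglin is known from endothelium, and the ratio was 0.372. Bmp2, a ligand of sinusoidal endothelium in the liver, was at 494, 401 and 589 CPM against 59.2, 78.2 and 86.1 CPM (log2 difference 2.56 ± 0.22, adjusted p = 0.000374), with a ratio of 0.374. Bmp2 is itself on the endothelial marker list. Id1, a further inhibitor of DNA binding and BMP target, was at 169, 127 and 192 CPM against 23.99, 14.5 and 54.6 CPM. Its call was lost without Kupffer replicate 1 or 3 or splenic replicate 1 (adjusted p = 0.0523, 0.0597 and 0.0551). Id1 stood at 2.02 of the other KO libraries in Kupffer KO replicate 3.

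Heme and iron genes leaned to the spleen: 13 of 34 tested members were higher in splenic macrophages (background 9.4%) and 4 in Kupffer cells (background 12.2%) (11 to 13 and 3 to 4 without each library in turn). They had a median log2 difference of -0.58 against 0.05 for all genes. Hmox1, the heme oxygenase that opens the heme ring, was at 1180.4, 1131 and 1100.4 CPM in Kupffer cells and 4665, 5492 and 4487 CPM in splenic macrophages (log2 difference -2.27 ± 0.12, adjusted p = 6.92e-05). Its constitutive relative Hmox2 was slightly higher in Kupffer cells, at 99.04, 90.5 and 99.1 CPM against 61.7, 54.6 and 54.8 CPM (log2 difference 0.59 ± 0.10, adjusted p = 0.00749). Biliverdin, the product, is reduced by Blvra, which was at 88.7, 85.5 and 86.4 CPM against 200.4, 208 and 205 CPM (log2 difference -1.40 ± 0.10, adjusted p = 0.000174). The inducible and the constitutive oxygenase were on opposite sides, and Hmox2 stood at 1.1 of the other KO libraries in Kupffer KO replicate 3.

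Slc48a1 (HRG1), which carries heme out of the phagolysosome, was at 239.5, 268 and 215 CPM in Kupffer cells and 450.1, 472 and 559.9 CPM in splenic macrophages (log2 difference -1.20 ± 0.14, adjusted p = 0.00146). The ferritin genes, whose products store iron, were both higher in the spleen. Fth1 was at 4242, 3823 and 4327 CPM against 10174, 8358 and 6842 CPM (log2 difference -1.19 ± 0.14, adjusted p = 0.00156). Ftl1 was at 2715, 2720.1 and 2684 CPM against 5328, 4978 and 4040.1 CPM (log2 difference -0.98 ± 0.12, adjusted p = 0.00143). Slc11a1 (NRAMP1), a phagosomal metal exporter, followed at 737, 845 and 777 CPM against 1155, 1342 and 1277 CPM (log2 difference -0.84 ± 0.12, adjusted p = 0.00329). Ferroportin, Slc40a1, the exporter that returns iron to plasma, was high in both cells at 4125, 5022 and 3577 CPM and 4583, 6249 and 5831 CPM. It did not pass the test (log2 difference -0.56, 95% interval -0.98 to -0.13, adjusted p = 0.0721).

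Trf, which encodes the plasma iron carrier transferrin, was at 2006, 2845 and 2268 CPM in Kupffer cells and 6424, 6102 and 6463 CPM in splenic macrophages (log2 difference -1.58 ± 0.15, adjusted p = 0.000588). Sirpa, the receptor that reads the CD47 signal on healthy red cells, was at 1122, 1362 and 1184 CPM against 2508, 3067 and 3376 CPM (log2 difference -1.45 ± 0.16, adjusted p = 0.00105). Among the called members are 3 that erythroid cells also express: Epor, Tfrc (transferrin receptor) and Fech (ferrochelatase, the last step of heme synthesis). Fech was at 79.2, 70.6 and 57.6 CPM and 181, 146 and 368 CPM. Tfrc was at 41.5, 34.7 and 39.1 CPM and 106, 77.8 and 180.1 CPM. Both were highest in splenic replicate 3, which held the most erythroid RNA. Without that library their log2 differences were -1.41 and -1.42, against -1.92 and -1.83 with it. Epor was at 14.4, 19.2 and 20.4 CPM against 65.8, 76.7 and 96.7 CPM (log2 difference -2.31 ± 0.22, adjusted p = 0.000628). Among the 4 Kupffer-sided members Heph, a ferroxidase, was at 16.1, 15.3 and 12.2 CPM and at 0 in every splenic library, at least 808-fold above the floor. It stood at 0.434 of the other KO libraries in Kupffer KO replicate 3. The hepatocyte products Hpx (hemopexin) and Hp (haptoglobin), which bind free heme and hemoglobin in plasma, were on the Kupffer side. Hpx was at 20.2, 18.3 and 21.7 CPM against 1.08, 0.128 and 2.59 CPM. Hp was at 16.6, 21.4 and 21.2 CPM against 2.08, 3.21 and 5.62 CPM. Their ratios in Kupffer KO replicate 3 were 1.18 and 1.04. Hepatocyte markers were not lowest in that library, with sums of 238, 390 and 325 CPM in the KO Kupffer libraries. These 2 ratios therefore do not bear on hepatocyte RNA, whose part was not tested. The call of Hpx was lost without any 1 of the Kupffer libraries or splenic replicate 1 (adjusted p = 0.0598, 0.0531, 0.0643 and 0.0643), and that of Hp in the fit of 24 libraries (adjusted p = 0.0605).

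**Figure D3:**
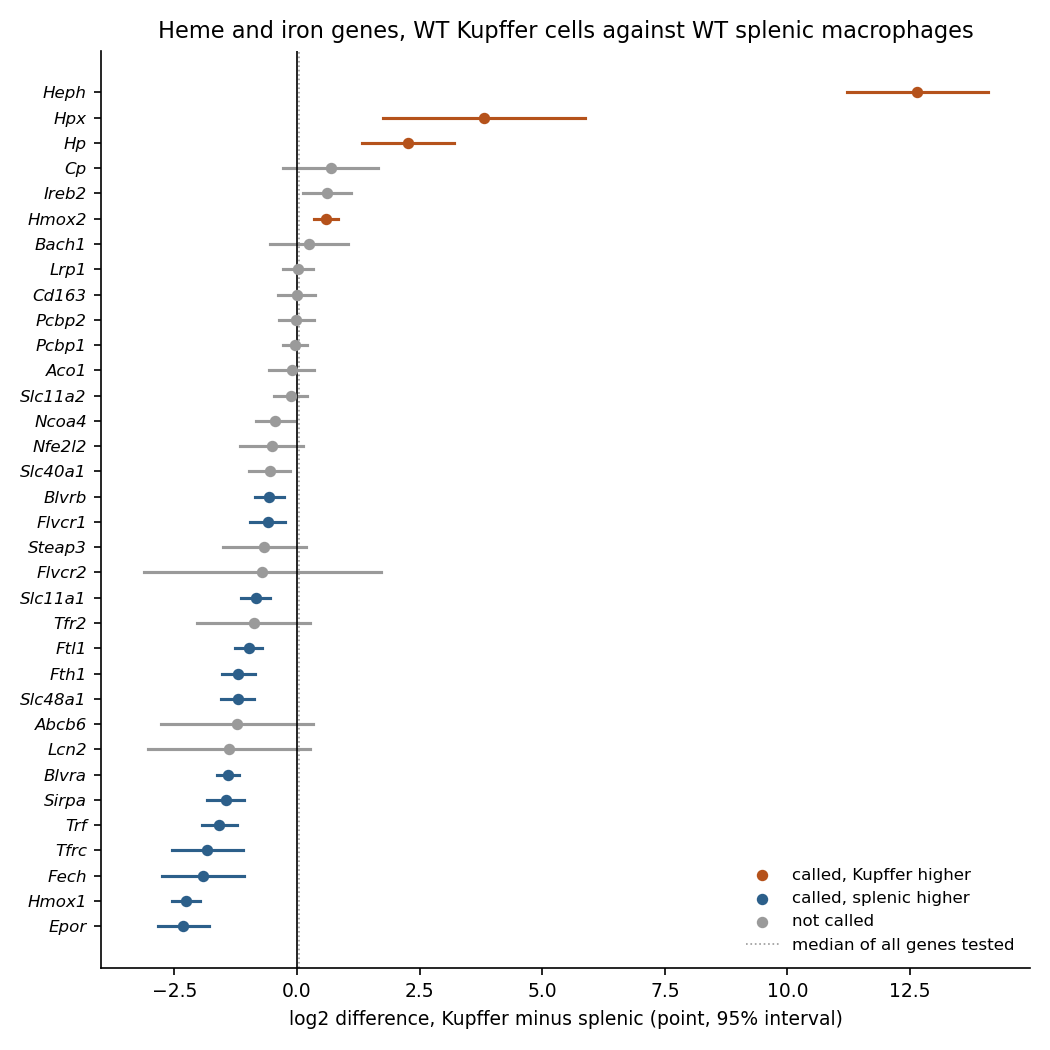
Log2 difference, Kupffer minus splenic, with its 95% interval for the 34 tested heme and iron genes, coloured by call, with the median of all genes as a dotted line. Hmox1, Epor, Trf, Fth1 and 9 others lie below 0 as called, Heph, Hpx, Hp and Hmox2 lie above 0 as called, and Cd163, Lrp1 and Pcbp1 lie close to 0.

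For the clearance of apoptotic cells, 12 of 26 tested members were higher in Kupffer cells and 6 in splenic macrophages, with different members on each side. The soluble bridges to phosphatidylserine were on the Kupffer side: Pros1 was at 289.6, 317 and 275 CPM against 13.5, 9.19 and 7.07 CPM (log2 difference 4.73 ± 0.25, adjusted p = 6.29e-05). Gas6 was at 233, 135 and 263 CPM against 24.03, 27.6 and 38.8 CPM (log2 difference 2.63 ± 0.31, adjusted p = 0.00138). Mfge8 was at 92.4, 72.4 and 134 CPM against 10.4, 4.73 and 8.85 CPM (log2 difference 3.48 ± 0.36, adjusted p = 0.000836). In Kupffer KO replicate 3 these 3 genes stood at 0.536, 0.587 and 0.404 of the other KO replicates. Of the receptor kinases that bind Gas6 and Pros1, Axl and Mertk were higher in splenic macrophages, Mertk at 556, 553 and 509.7 CPM against 935, 1053 and 1090.1 CPM (log2 difference -1.09 ± 0.12, adjusted p = 0.000931). Tyro3, the remaining member of that kinase family, was read at low levels and on the Kupffer side with the bridges, at 6.65, 0.572 and 0.787 CPM against 0.0179, 0 and 0.0178 CPM (log2 difference 7.40 ± 1.44, adjusted p = 0.0115), with a KO replicate 3 ratio of 0.459. Without Kupffer replicate 1 the log2 difference of Tyro3 was 5.46.

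Of the receptors, Trem2, which senses lipids of dying cells, was at 28.3, 42.2 and 38.4 CPM in Kupffer cells and 0.395, 0.0548 and 0 CPM in splenic macrophages (log2 difference 7.75 ± 0.91, adjusted p = 0.00141); its difference was 10.08 without splenic replicate 1. It stood at 2.08 of the other KO libraries in Kupffer KO replicate 3. Cd36, a fatty acid and apoptotic cell receptor, was at 334, 388 and 384 CPM against 36.5, 60.3 and 82.002 CPM (log2 difference 2.46 ± 0.30, adjusted p = 0.0017), with a ratio of 0.966 in that library. The inhibitory receptors Cd300lf and Cd300a were higher in splenic macrophages. Cd300lf was at 143, 123 and 154 CPM against 489, 653 and 491 CPM (log2 difference -2.13 ± 0.17, adjusted p = 0.000314). Cd300a was at 359.6, 367 and 296 CPM against 562, 647 and 566 CPM (log2 difference -0.96 ± 0.13, adjusted p = 0.00255). Elmo1, which acts with Dock proteins in engulfment, was at 169.8, 149 and 140.4 CPM against 322, 311 and 271 CPM (log2 difference -1.14 ± 0.12, adjusted p = 0.000779).

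Among 19 tested scavenger receptors 10 were higher in Kupffer cells and 2 in splenic macrophages (9 to 10 without each library in turn; the 2 became 1 without any single Kupffer library or splenic replicate 1). Msr1, the class A receptor for modified lipoproteins, was at 441, 543 and 481 CPM against 17.8, 25.7 and 28.3 CPM (log2 difference 4.18 ± 0.23, adjusted p = 8.12e-05). Marco, a related bacterial receptor, was at 1294, 946 and 767 CPM against 284, 94.7 and 98.5 CPM (log2 difference 2.51 ± 0.45, adjusted p = 0.00843). Without splenic replicate 1, where it was highest among splenic libraries, the log2 difference of Marco was 3.17. Msr1 and Marco stood at 1.31 and 1.92 of the other KO libraries in Kupffer KO replicate 3, the library low in endothelial RNA. The stabilin genes Stab1 and Stab2, which sinusoidal endothelium also expresses, stood at 0.578 and 0.507. Stab2 is itself on the endothelial marker list. Stab2 was not called in the fits of 12 or 24 libraries (adjusted p = 0.378 and 0.263). Stab1 was at 1152, 948 and 997 CPM against 54.6, 26.7 and 18.1 CPM (log2 difference 4.81 ± 0.42, adjusted p = 0.000416). Mrc1, the mannose receptor, was the 1 receptor of this list that was higher in splenic macrophages in every fit that left out a library. It was at 1319, 1306 and 1172 CPM against 1886, 1953 and 2209.5 CPM (log2 difference -0.84 ± 0.11, adjusted p = 0.00266).

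The classical complement pathway starts with C1q. The subunits C1qa, C1qb and C1qc were among the 10 most abundant genes whose 95% interval lay within 0.5 of 0 on the log2 scale. C1qb was at 4245, 4811 and 4823 CPM and 3567, 3396 and 3791 CPM. Of 26 tested members of the list 11 were higher in Kupffer cells and 4 in splenic macrophages. C4b, a component of the classical pathway, was at 887, 1258 and 819 CPM against 27.9, 14.8 and 26.7 CPM (log2 difference 5.26 ± 0.32, adjusted p = 0.000122). The receptors for the fragments C3a and C5a, C3ar1 and C5ar1, were also on the Kupffer side. C3ar1 was at 254, 257 and 179 CPM against 8.45, 8.93 and 3.84 CPM (log2 difference 4.86 ± 0.36, adjusted p = 0.000233). C5ar1 was at 179, 158 and 144 CPM against 19.8, 29.6 and 15.4 CPM (log2 difference 2.73 ± 0.26, adjusted p = 0.000594). C4b, C3ar1 and C5ar1 stood at 0.676, 1.08 and 0.964 of the other KO libraries in Kupffer KO replicate 3. C4b was at 1982, 1038 and 1021 CPM in the KO Kupffer libraries. Its highest values, in WT replicate 2 and KO replicate 1, were in the libraries with the highest sums of peritoneal markers. Among WT Kupffer libraries C3ar1 was also highest in replicate 2, and C5ar1 in replicate 1. Among KO Kupffer libraries C3ar1 was highest in replicate 3 and C5ar1 in replicate 2. The part of peritoneal cells in these levels was not tested.

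The beta-2 integrin family, which includes the complement receptors CR3 and CR4, parted between neighbouring genes. Itgam, Itgax and Itgad follow each other on the plus strand of chromosome 7 (mm10, 128062640 to 128118491, 128129547 to 128150657 and 128154376 to 128223816). Itgam (CD11b) was higher in Kupffer libraries, at 25.5, 51.6 and 27.4 CPM against 4.65, 2.502 and 3.34 CPM (log2 difference 3.16 ± 0.37, adjusted p = 0.00145). Its highest value was in replicate 2, the library with the most RNA of peritoneal macrophage markers. In the KO Kupffer libraries Itgam was at 94.5, 37.3 and 23.8 CPM (ratio 0.362), and the sums of the peritoneal markers were 2021, 586 and 204 CPM. The order of so few libraries cannot show which cells held Itgam RNA, and this was not tested. Itgax (CD11c) was higher in splenic macrophages, at 63.2, 45.8 and 32.5 CPM against 177, 161 and 155 CPM (log2 difference -1.97 ± 0.23, adjusted p = 0.00136), as Itgad was. Itgal (CD11a), at 732, 827 and 538 CPM against 65.3, 40.7 and 50.99 CPM (log2 difference 3.58 ± 0.23, adjusted p = 0.000146), was on the Kupffer side. It stood at 1.3 of the other KO libraries in Kupffer KO replicate 3. Their shared partner Itgb2 was at 617, 691 and 503 CPM against 1015, 1086 and 1045 CPM (log2 difference -0.96 ± 0.14, adjusted p = 0.00332).

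In the whole list of integrins and adhesion molecules 13 of 34 tested members were higher in Kupffer cells and 9 in splenic macrophages (9 to 14 and 7 to 9 without each library in turn). Itga8, Icam2 and Jam2, on the Kupffer side, stood at 0.275, 0.271 and 0.103 of the other KO libraries in Kupffer KO replicate 3, the library lowest in endothelial and in peritoneal markers. Itga6, also on the Kupffer side, stood at 0.227 there and was at 178, 73.7 and 28.6 CPM in the KO Kupffer libraries. Which cells held the RNA of these genes was not tested. Without splenic replicate 1 the difference of Jam2 moved from 9.97 to 16.20. Icam1 and Selplg were on the splenic side. Icam1, an adhesion ligand of leukocytes, was at 247, 247 and 358 CPM against 552, 613 and 540.1 CPM (log2 difference -1.16 ± 0.18, adjusted p = 0.00433). Selplg, the ligand of P-selectin, was at 238, 267 and 238 CPM against 439, 491 and 447 CPM (log2 difference -1.06 ± 0.11, adjusted p = 0.000985).

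Of 33 tested C-type lectins and relatives 13 were higher in Kupffer cells and 7 in splenic macrophages. Clec4n (dectin-2), a receptor for fungal mannans, was the called splenic member with the widest difference, at 192, 194 and 186 CPM against 827, 788 and 791 CPM (log2 difference -2.24 ± 0.09, adjusted p = 3.62e-05). Cd209f, a relative of DC-SIGN, was at 78.4, 129.6 and 86.7 CPM against 0.144, 0.53 and 0 CPM (log2 difference 8.61, and 10.24 without splenic replicate 2). Its relative Cd209g was at 19.9, 37.5 and 25.2 CPM and at 0 in every splenic library, at least 1529.95-fold above the floor. Clec1b (CLEC-2), the receptor for podoplanin, was shared, at 267, 334 and 255 CPM against 84.8, 109 and 98.4 CPM (log2 difference 1.38 ± 0.16, adjusted p = 0.00149). For Cd209f, Cd209g and Clec1b the ratios in Kupffer KO replicate 3 were 0.963, 0.684 and 1.35. Of other C-type lectins higher in Kupffer cells, Clec4g, Clec1a, Clec14a, Cd209b and Clec9a stood at 0.247, 0.219, 0.324, 0.227 and 0.402. Clec1a, Clec14a, Cd209b and Clec9a lie within the range of the endothelial markers, 0.151 to 0.593. Clec4g is itself on the endothelial list and lies within that range by construction. Cd209b rests on low levels, 1.45, 2.26 and 0.422 CPM in the KO Kupffer libraries. Above the endothelial range were Clec10a, Cd207, Clec4f, Mgl2 and Cd72, at 0.702, 1.17, 1.13, 1.51 and 1.01. Among 10 tested Fc receptors, Fcgr2b, the inhibitory receptor for IgG, was at 597, 499.5 and 705 CPM against 28.2, 24.2 and 23.3 CPM (log2 difference 4.41 ± 0.17, adjusted p = 2.87e-05). In Kupffer KO replicate 3 it stood at 0.364 of the other KO libraries, as endothelial markers did; sinusoidal endothelium also expresses it. Fcer1g, the signalling chain of the activating receptors, was higher in the spleen at 637, 781 and 692 CPM against 917, 944 and 1053 CPM (log2 difference -0.63 ± 0.13, adjusted p = 0.0133). That call was lost without Kupffer replicate 1 (adjusted p = 0.0505).

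Of 25 tested chemokine ligands 12 were higher in Kupffer cells and 0 in splenic macrophages (9 to 14 and 0 without each library in turn). DESeq2 also made 0 splenic calls, and 0 of the 25 were on the splenic side at an unadjusted p under 0.05 in edgeR's test. Cxcl13, which draws B cells, was at 74.2, 70.8 and 72.2 CPM against 0.503, 0.292 and 0.462 CPM (log2 difference 7.26 ± 0.23, adjusted p = 2.21e-05). Ccl24, a ligand of Ccr3, was at 191, 235 and 189 CPM against 23.3, 32.8 and 35.4 CPM (log2 difference 2.58 ± 0.21, adjusted p = 0.000316). Ccl6 was at 447, 535 and 346 CPM against 93.3, 88.5 and 81.3 CPM (log2 difference 2.17 ± 0.17, adjusted p = 0.000297). Cxcl16, a transmembrane chemokine, was at 327, 274 and 318 CPM against 70.8, 46.5 and 33.3 CPM (log2 difference 2.45 ± 0.26, adjusted p = 0.00092). Cxcl13 stood at 0.512 of the other KO libraries in Kupffer KO replicate 3, within the range of the endothelial markers; Ccl24, Ccl6 and Cxcl16 stood at 0.853, 0.776 and 0.906.

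Chemokine receptors were split, with 9 of 18 tested members higher in Kupffer cells and 3 in splenic macrophages. Ccr3, the eotaxin receptor known from eosinophils, was at 9.34, 12.3 and 12.4 CPM in Kupffer libraries and 468, 514 and 805 CPM in splenic libraries (log2 difference -5.88 ± 0.30, adjusted p = 5.5e-05). Its ligand gene Ccl24 was on the liver side. Cxcr4, the receptor for a homing signal of bone marrow and spleen, was at 14.1, 8.94 and 15.9 CPM against 46.4, 63.2 and 40.01 CPM (log2 difference -2.11 ± 0.28, adjusted p = 0.00237).

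Of 30 tested cytokines and growth factors 10 were higher in splenic macrophages and 8 in Kupffer cells (the 8 became 5 without Kupffer replicate 3). Gdf15, a stress-induced hormone, was at 42.96, 24.4 and 80.7 CPM against 1898, 1262 and 1224 CPM (log2 difference -5.04 ± 0.49, adjusted p = 0.000651). Il18 and the gene of its soluble inhibitor Il18bp went in opposite directions: Il18 was at 30.2, 45.3 and 44.02 CPM against 242, 259 and 267 CPM (log2 difference -2.85 ± 0.19, adjusted p = 0.000165). Il18bp was at 609.6, 731 and 631 CPM against 152, 139 and 158 CPM (log2 difference 1.97 ± 0.12, adjusted p = 0.000129). Interleukin 1 genes were divided as well. Il1a was at 167, 148 and 230.4 CPM against 555, 503 and 451 CPM (log2 difference -1.63 ± 0.19, adjusted p = 0.00127). Il1rn, which encodes the receptor antagonist, was at 42.7, 47.1 and 27.2 CPM against 8.72, 6.45 and 2.75 CPM (log2 difference 2.55 ± 0.43, adjusted p = 0.00633). In the fit of 12 WT libraries Il1a and Il1rn were not called (adjusted p = 0.117 and 0.0701). The costimulatory genes Cd86 and Cd83 were higher in splenic macrophages. Cd86 was at 349, 386 and 317 CPM against 998, 1099 and 830.2 CPM (log2 difference -1.64 ± 0.14, adjusted p = 0.000443). Cd83 was at 652, 332 and 753 CPM against 5283, 6419.9 and 4776 CPM (log2 difference -3.41 ± 0.32, adjusted p = 0.00061). Cd40, a costimulatory receptor, was higher in Kupffer cells, at 38.6, 36.6 and 32.2 CPM against 16.5, 7.03 and 9.38 CPM (log2 difference 1.55 ± 0.30, adjusted p = 0.0114). It was not called in the fit of 24 libraries (adjusted p = 0.13). In Kupffer KO replicate 3 the ratios of Il18bp, Il1rn and Cd40 were 1.31, 0.627 and 1.05.

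Interferon-stimulated genes were higher in Kupffer cells: 21 of 34 tested members were called on that side and 1, Isg20, on the splenic side (17 to 22 and 0 to 2 without each library in turn). The call of Isg20 was lost without any 1 of the Kupffer libraries (adjusted p = 0.0786, 0.0836 and 0.0635). The list had a median log2 difference of 1.005, against 0.05 for all genes. Ifitm3, which blocks viral entry, was at 822, 858 and 1032 CPM against 206, 183 and 209.9 CPM (log2 difference 2.02 ± 0.13, adjusted p = 0.000158). Oasl2 was at 179, 189 and 218 CPM against 15.4, 11.8 and 30.1 CPM (log2 difference 3.19 ± 0.36, adjusted p = 0.00124). Ifit2 was at 151, 179.7 and 208 CPM against 27.6, 18.5 and 31.1 CPM (log2 difference 2.64 ± 0.23, adjusted p = 0.00043). For the 21 called genes the ratio of Kupffer KO replicate 3 to the other KO libraries had a median of 0.828.

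Pattern recognition genes leaned to the spleen, with 8 of 24 tested members higher there (background 9.4%) and 3 in Kupffer cells (background 12.2%); the 8 became 5 without Kupffer replicate 1 or 2 or splenic replicate 2. Cd14, the co-receptor for bacterial lipopolysaccharide, was at 496, 476 and 914 CPM against 1908, 2167 and 1686 CPM (log2 difference -1.77 ± 0.28, adjusted p = 0.00477). Tlr7, the sensor of single-stranded RNA, was at 63.7, 78.2 and 56.9 CPM against 142, 146 and 160.3 CPM (log2 difference -1.34 ± 0.15, adjusted p = 0.00118). Tlr3, the sensor of double-stranded RNA, was at 41.1, 38.9 and 42.4 CPM against 13.05, 10.4 and 11.7 CPM (log2 difference 1.64 ± 0.15, adjusted p = 0.000484), on the Kupffer side. It stood at 0.511 of the other KO libraries in Kupffer KO replicate 3.

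Of 24 tested targets of liver X receptors 9 were higher in Kupffer cells and 5 in splenic macrophages (the 5 became 3 without Kupffer replicate 3), and the median log2 difference was 0.01. The lipid carriers were on the Kupffer side. Apoe was at 18152, 21985 and 19814 CPM against 7274, 6187 and 6917 CPM (log2 difference 1.40 ± 0.11, adjusted p = 0.000299). Apoc1 was at 317, 407 and 352 CPM against 21.4, 24.8 and 35.9 CPM (log2 difference 3.54 ± 0.24, adjusted p = 0.000174). Pltp, the phospholipid transfer protein, was at 867, 1050.3 and 808 CPM against 95.2, 104 and 104 CPM (log2 difference 3.003 ± 0.14, adjusted p = 5.03e-05). Abcg1, which exports cholesterol, and Srebf1, which drives fatty acid synthesis, were on the splenic side. Abcg1 was at 92.5, 130.1 and 103 CPM against 181, 215 and 197 CPM (log2 difference -1.03 ± 0.16, adjusted p = 0.00509). Srebf1 was at 99.8, 113 and 113 CPM against 250.1, 197 and 247 CPM (log2 difference -1.25 ± 0.13, adjusted p = 0.000862). Apoc1 and Pltp stood at 1.1 and 1.38 of the other KO libraries in Kupffer KO replicate 3.

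Of 41 tested lysosomal genes 14 were higher in splenic macrophages (background 9.4%) and 5 in Kupffer cells, a share near the background of 12.2%; without Kupffer replicate 1, 2 or 3 or splenic replicate 2 the 14 became 7, 9, 9 and 8. Pld3, a lysosomal nuclease, was at 346, 368 and 385 CPM against 1738, 1994 and 2066 CPM (log2 difference -2.57 ± 0.13, adjusted p = 5.45e-05). The cathepsin genes divided. Ctse was at 1.801, 2.03 and 3.06 CPM against 100.6, 86.7 and 218 CPM (log2 difference -6.04 ± 0.48, adjusted p = 0.000302), highest in splenic replicate 3. Ctsl and Ctsh were higher in Kupffer cells. Ctsl was at 596, 607 and 712 CPM against 253, 250.3 and 244 CPM (log2 difference 1.19 ± 0.11, adjusted p = 0.000628). Ctsh was at 839.7, 929 and 796 CPM against 481, 409 and 348 CPM (log2 difference 0.89 ± 0.13, adjusted p = 0.00403). Lyz2, lysozyme, was at 6349, 8007 and 5465 CPM against 424, 210.2 and 215 CPM (log2 difference 4.39 ± 0.32, adjusted p = 0.000228). Ctsl and Ctsh had ratios of 0.815 and 1.19 in Kupffer KO replicate 3. The lipid mediator enzymes Hpgds, which makes prostaglandin D2, and Pla2g7, which breaks down platelet-activating factor, were higher in splenic macrophages. Hpgds was at 32.5, 49.1 and 41.5 CPM against 136, 194 and 167 CPM (log2 difference -2.18 ± 0.22, adjusted p = 0.000752). Pla2g7 was at 181, 189.7 and 182 CPM against 497, 488 and 536 CPM (log2 difference -1.62 ± 0.10, adjusted p = 0.000131).

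Immediate early genes, which also rise when tissue is digested, were higher in the spleen: 14 of 28 tested members were called there and 1, Socs3, in Kupffer cells (10 to 17 and 0 to 3 without each library in turn). Socs3 stood at 0.663 of the other KO libraries in Kupffer KO replicate 3, and was not called without Kupffer replicate 1 or 3 or splenic replicate 1 (adjusted p = 0.0655, 0.0697 and 0.0503). Nr4a1 was at 863, 470.4 and 1334 CPM in Kupffer cells and 4978, 5191 and 5005 CPM in splenic macrophages (log2 difference -2.67 ± 0.36, adjusted p = 0.00247). Egr2 was at 33.8, 27.1 and 45.96 CPM and 182, 305 and 281 CPM (log2 difference -3.01 ± 0.29, adjusted p = 0.000647). The list summed to 27049, 20959 and 39406 CPM in Kupffer and to 41742, 42939 and 48290.0 CPM in splenic libraries, with Kupffer replicate 3 nearest to the spleen. Cd83, Il1a, Gdf15 and Bhlhe40 are known as genes of rapid responses too, and how much of their differences moved with this list was not tested.

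**Figure D4:**
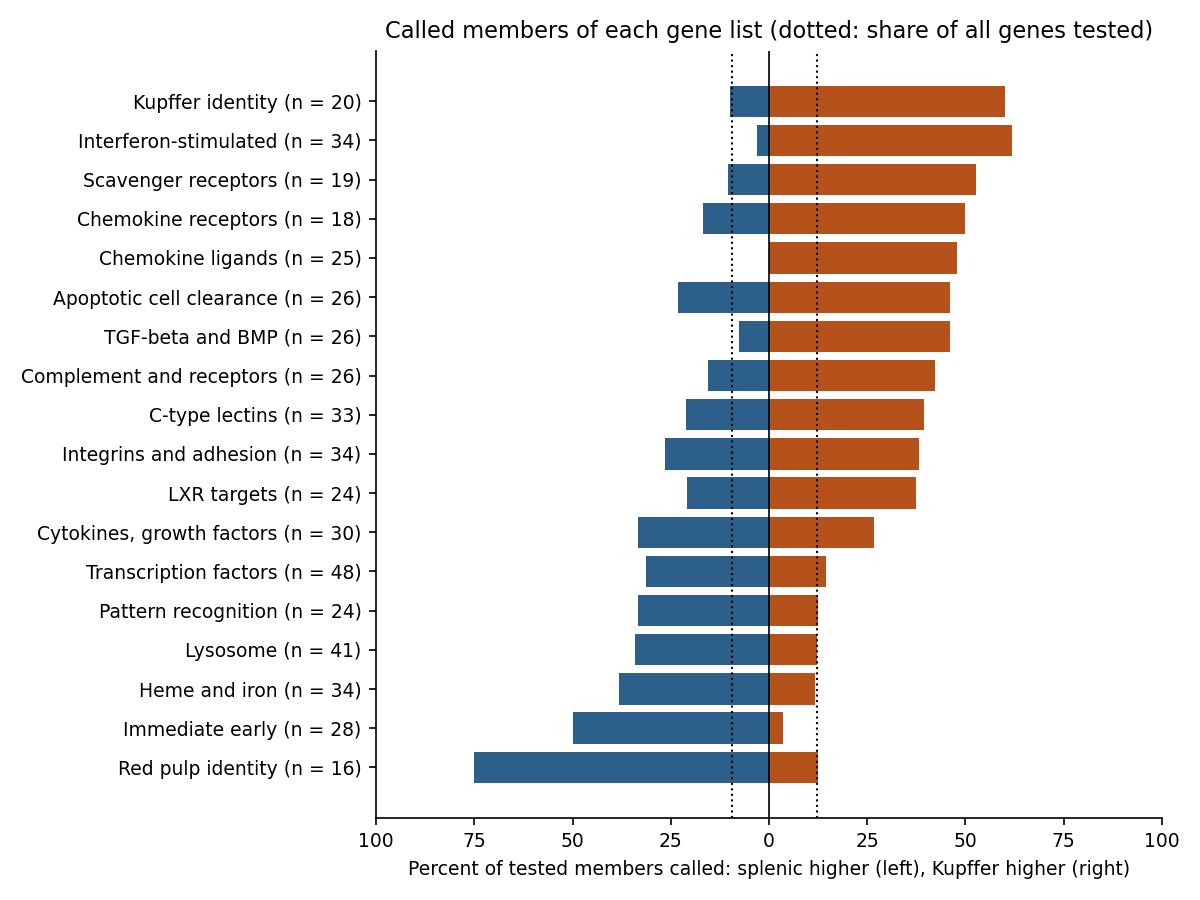
Percent of the tested members of 18 gene lists that were called, with Kupffer-higher members to the right (orange) and splenic-higher members to the left (blue), and the share of all tested genes as dotted lines (12.2% and 9.4%). Interferon-stimulated genes and Kupffer identity genes reach farthest to the right, red pulp identity and immediate early genes farthest to the left, and integrins and cytokines extend to both sides.

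The tissue difference was read again in the KO animals, whose 6 libraries share no sample with the WT comparison. There 18557 genes were tested and 4149 called (22.4%). Of the 2276 genes higher in WT Kupffer cells 2146 were tested in KO libraries, 1384 were called on the same side and 1 on the other. Of the 1758 genes higher in WT splenic macrophages 1725 were tested, 1228 were called on the same side and 0 on the other (at an unadjusted p under 0.05, 2 of them were on the other side, and DESeq2 called 1 there). Clec4f was at 9121, 8175 and 9809 CPM in KO Kupffer and 0, 0.0194 and 0.0316 CPM in KO splenic libraries. In the same order Spic was at 143, 122 and 236 CPM and 1716, 1593 and 1422 CPM. Id3 was at 965, 786 and 960.2 CPM and 5.61, 5.97 and 5.49 CPM, and Hmox1 at 1244, 706 and 1900.1 CPM and 5429, 5486 and 4567 CPM. Each of these 4 was called in the KO pair on the side it had in WT.

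Of the genes named above that were called in WT, 12 did not pass the test in the KO pair: Blvra, Cd300a, Csf1r, Ctsb, Ednrb, Fcer1g, Hp, Irf8, Itgb2, Slc48a1, Socs3 and Tyro3. Blvra had a log2 difference of -0.84 in the KO pair (adjusted p = 0.0658), Slc48a1 of -0.76 (adjusted p = 0.122) and Irf8 of -0.36 (adjusted p = 0.138). A test of whether the tissue difference itself differed between the genotypes called 3 genes of 21082 tested (0.0142%), none of them named above.

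**Figure D5:**
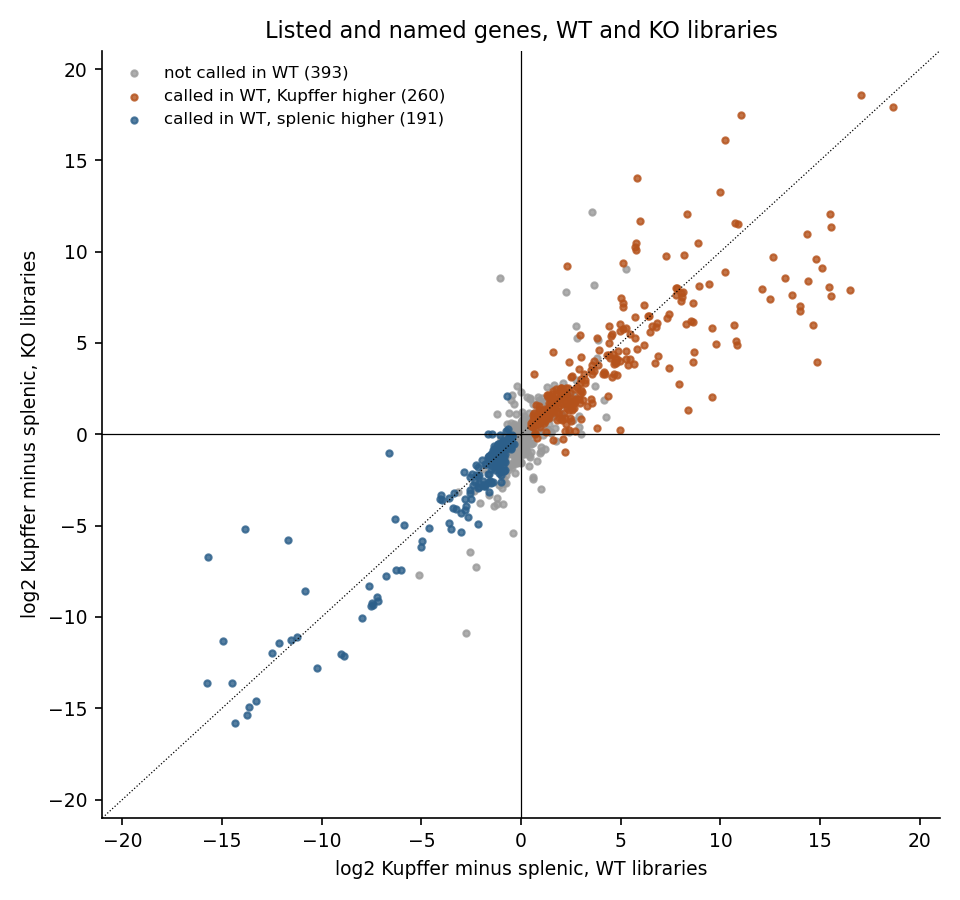
Log2 difference between Kupffer and splenic libraries in WT (horizontal) against the same in KO (vertical) for 844 listed and named genes tested in both, each point 1 gene, coloured by its WT call, with the line of equal values dotted. Of these, 260 called as Kupffer-higher in WT lie mostly in the upper right and 191 called as splenic-higher mostly in the lower left.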

How the data were processed

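RNA of sorted macrophages was made into libraries by a SMARTer Ultra Low kit and read by a NovaSeq X Plus instrument, per the labels' protocols. The authors deposited a table of whole-number read counts per gene, tables of the same genes in CPM and in TPM (5 TPM columns are listed as a score because repeated gene entries take their sums above 1000000), and the submitters' processing notes name mm10, DRAGEN, STAR, Subread, featureCounts and Salmon, with no roles. The strand setting of the counting is not stated in the sources used here, so overlapping and antisense genes cannot be told apart. The first entry of each of 55487 genes was kept (287 repeats held the same counts). CPM was recomputed from the counts and differed from the deposited CPM by at most 4.7e-11. The 6 WT libraries were fitted alone in edgeR 4.0.16 (R 4.3.3) with TMM, filterByExpr (minimum count 10), the quasi-likelihood test and Benjamini-Hochberg adjustment at 0.05 over all tested genes; every adjusted p is from this test unless another is named. DESeq2 1.42.0 and the other 14 alternatives are in the closing section. With 3 libraries against 3 an exact permutation test of 1 value cannot go below 0.1, so none was used. The procedure was tested on simulated data. Genes were named by rule: the 15 widest fitted differences each way among called genes with libraries that do not overlap and at least 20 CPM in the higher group, the 8 largest CPM differences each way, the 10 most abundant genes above 200 CPM with an interval within 0.5 of 0, and members of 47 gene lists. Members and lists were chosen with earlier results of these data known. A gene at 0 in a tissue is given as a bound against 3 counts over the group. Same-numbered libraries are not taken as pairs.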

Additional observations from a re-analysis of the deposited data

Results flagged for a closer look

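For 3 genes the difference between Kupffer and splenic libraries was not the same in the 2 genotypes by the test of that difference itself (edgeR's quasi-likelihood test of the interaction term, Benjamini-Hochberg adjusted over 21082 genes). Cav1, which encodes the caveolar protein caveolin 1, was at 18.6, 16.7 and 20.3 CPM in WT Kupffer libraries, at 0 CPM in all WT splenic libraries, at 15.4, 17.3 and 7.19 CPM in KO Kupffer libraries and at 2.44, 1.32 and 1.31 CPM in KO splenic libraries (KO minus WT difference, log2, -10.27 ± 0.88, SE, adjusted p = 0.00899). Since WT splenic libraries held 0 counts of Cav1, its fitted difference depends on the prior count and is no bound. Arc, an immediate early gene best known from neurons, was at 39.1, 24.96 and 47.4 CPM in WT Kupffer, 18.02, 25.3 and 21.8 CPM in WT splenic, 29.9, 27.6 and 28.3 CPM in KO Kupffer and 118, 128 and 128 CPM in KO splenic libraries (-2.92 ± 0.31, SE, adjusted p = 0.00899). Cd37, a tetraspanin of leukocytes, was at 173, 165 and 155 CPM, 120.4, 73.1 and 92.2 CPM, 142, 116 and 90.96 CPM and 11.5, 9.997 and 8.98 CPM in the same order (2.69 ± 0.26, SE, adjusted p = 0.00899). B cell marker sums in the spleen were 3013, 2171 and 2322 CPM (WT) and 334, 344 and 497 CPM (KO). In Kupffer libraries, where Cd37 changed less, they were 2055, 1654 and 1339 CPM (WT) and 324, 412 and 365 CPM (KO). Immediate early sums in the spleen were 41742, 42939 and 48290 CPM (WT) and 71553, 62293 and 53238 CPM (KO). Cav1 was lowest among Kupffer libraries in KO replicate 3, as the endothelial markers were. How far these lists bear on the 3 genes was not tested. With the replicate number as a block Cav1 and Arc were no longer called (adjusted p = 0.0649 for each), and Cd37 was (adjusted p = 0.00976). In each of the 3 the splenic libraries of the 2 genotypes did not overlap. The genes were picked by the interaction test on these same libraries, so that adds no support. Of the 21082 genes 1837 had an unadjusted p under 0.05 in the interaction test. A share of about 0.05 of genes would pass that threshold if none differed.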

How the results depend on the processing

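The count of 4034 called genes was 2894 to 3475 without each library in turn, 5409 by DESeq2, 3558 and 3890 in fits of the 12 WT and all 24 libraries, 3764 without the low-count filter, and 1726 against a fold of 2. The count of 3 genes whose tissue difference differed between genotypes was 306 by DESeq2, 12 without the low-count filter and 1 with the replicate block, and 3 to 11 without each library in turn (5 without Kupffer KO replicate 3, 8 without splenic WT replicate 2, 11 without splenic WT replicate 3); the cause was not tested. Replicate numbers are shared between the tissues, and the sources used here do not say whether they pair libraries. Deviations from the group mean correlated at 0.0408, -0.0127 and 0.0554 for same-numbered libraries and at -0.0566 to 0.0207 for others. With 3 libraries per group such values cannot decide whether libraries are paired, and the main test took them as unpaired. With the number as a replicate block 3217 genes were called. Of the 156 called genes named in the text, 12 lost their call in the fit of 12 WT libraries, 8 in that of 24, 36 against a fold of 2, 3 with the block, at most 9 without any 1 library, and 0 by DESeq2, and none was reversed under any of the 15 settings. Depth limits genes with few counts in 1 tissue, where 3 counts over a group equal 0.0165 CPM in Kupffer and 0.018 CPM in splenic libraries.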

Other observations

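Receptors for extracellular nucleotides, which damaged cells release, were read in a list of 17 tested genes, with 4 higher in Kupffer cells and 3 in splenic macrophages, against 12.2% and 9.4% of all tested genes (the 3 became 2 without Kupffer replicate 1 or splenic replicate 1 or 2). P2ry6, the receptor for UDP, was at 115, 131 and 118 CPM in Kupffer and 1.13, 1.42 and 0.853 CPM in splenic libraries (log2 difference 6.57 ± 0.23, adjusted p = 2.21e-05) and stood at 1.26 of the other KO libraries in Kupffer KO replicate 3, the library lowest in endothelial markers. P2ry1, a receptor for ADP, was at 15.5, 13.1 and 10.8 CPM against 0.592, 0.84 and 0.427 CPM (log2 difference 4.23 ± 0.36, adjusted p = 0.000383) and stood at 0.514 in that library, within the range of the endothelial markers (0.151 to 0.593). Smpdl3a, an enzyme that degrades extracellular nucleotides and a known target of liver X receptors, was at 637, 762 and 614 CPM against 151, 161 and 136 CPM (log2 difference 2.005 ± 0.13, adjusted p = 0.000165), with a ratio of 1.23. Pla2g15, a lysosomal phospholipase, was on the splenic side at 358, 455 and 404 CPM against 1063, 1474 and 1205 CPM (log2 difference -1.79 ± 0.18, adjusted p = 0.000694).

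The Notch receptors, through which neighbouring cells signal to macrophages in both organs, were divided. Notch1 was at 163, 152 and 189.7 CPM against 34.8, 29.4 and 32.9 CPM (log2 difference 2.21 ± 0.13, adjusted p = 0.000114). Notch4, known from endothelium, was at 59.4, 43.1 and 76.3 CPM against 1.69, 2.03 and 2.58 CPM (log2 difference 4.66 ± 0.30, adjusted p = 0.000151). In Kupffer KO replicate 3 Notch1 and Notch4 stood at 0.512 and 0.5 of the other KO libraries. Notch2 was higher in the spleen, at 113, 115 and 134 CPM against 194, 217 and 190.2 CPM (log2 difference -0.90 ± 0.13, adjusted p = 0.00299), and was not called in the fit of 12 WT libraries (adjusted p = 0.0754).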
